A study of Mus musculus with 31 samples.

Results

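The genes described here encode the proteins of the mitochondrial ribosome in mouse liver. They were taken as every gene of the array annotation whose symbol is Mrpl or Mrps followed by a number, with 1 probe set per gene, the one with the highest mean over all arrays. This gave 73 of the 17097 genes that carry exactly 1 symbol. Of these, 48 encode proteins of the large subunit and 24 proteins of the small subunit. Mrps36 matches the symbol rule but encodes a protein now assigned to the 2-oxoglutarate dehydrogenase complex, and Mrps18a and Mrps30, despite their names, encode proteins of the large subunit. The members were also looked up by gene identifier in RefSeq's gene table, where all 73 were found under the same symbol.

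RNA from male mouse livers was measured on 31 one-colour Affymetrix HT MG-430 PM arrays in 8 groups, whose titles call the arrays biological replicates. The first experiment held 4 Xbp1 ko livers and 4 livers of WT littermates, at 14 weeks and in the fed state. In the second, Xbp1 ko mice of 9 weeks had been injected with an siRNA for IRE1 (4 livers) or for luciferase (4 livers), with an interval of 8 days. The third crossed Ire1 genotype with tunicamycin at 14 weeks: 4 Ire1 ko livers and 4 WT livers at 6 h after tunicamycin at 2 mg/kg, 3 untreated Ire1 ko livers and 4 untreated WT livers. The labels give C57BL/6 for WT and Xbp1 ko mice and a mixed strain for Ire1 ko mice, but the untreated WT mice of the third experiment are titled littermates of Ire1 ko mice, at odds with the strain entries, and the WT tunicamycin mice carry no such title. Effects of strain or litter and of the Ire1 deletion cannot be told apart. They do not name the promoter or cell type in which either gene was deleted. IRE1, the product of Ern1, is a sensor of unfolded protein in the endoplasmic reticulum that splices the mRNA of the transcription factor XBP1, and tunicamycin blocks N-linked glycosylation and so loads that compartment with unfolded protein.

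The mitochondrial ribosome translates the few proteins that the mitochondrial genome encodes, all of them subunits of the respiratory chain and ATP synthase. Its RNAs come from the mitochondrial genome, while all of its proteins are encoded in the nucleus, made in the cytosol and imported. Some are counterparts of bacterial ribosomal proteins (45 of the genes here) and others are specific to mitochondria (27 of the genes here). Hepatocytes are rich in mitochondria, and the promoters of nuclear genes for mitochondrial proteins are known to be bound by NRF1, by the ETS factor GABP and by YY1.

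Promoters of 4 genes are printed because the results below turn on these genes: Mrps12, Mrpl49 and Mrpl12 for tunicamycin and Ire1, and Mrps27 for Xbp1. They are from RefSeq (build GRCm38.p6), 5′ to 3′ on the strand of the gene, and were trimmed to the bases outside annotated genes. The positions are chr7:28741822-28741956 on the minus strand for Mrps12, chr19:6057756-6057946 on the minus strand for Mrpl49, chr11:120484387-120484636 on the plus strand for Mrpl12 and chr13:99344679-99344785 on the plus strand for Mrps27. Capitals mark a match to one of the motifs named below.
Mrps12: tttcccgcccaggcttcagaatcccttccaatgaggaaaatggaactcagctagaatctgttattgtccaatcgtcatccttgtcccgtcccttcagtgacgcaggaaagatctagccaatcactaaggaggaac
Mrpl49: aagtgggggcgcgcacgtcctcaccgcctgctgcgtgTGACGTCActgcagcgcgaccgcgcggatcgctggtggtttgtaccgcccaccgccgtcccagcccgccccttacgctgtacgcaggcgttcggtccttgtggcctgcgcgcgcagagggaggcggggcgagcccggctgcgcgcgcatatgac
Mrpl12: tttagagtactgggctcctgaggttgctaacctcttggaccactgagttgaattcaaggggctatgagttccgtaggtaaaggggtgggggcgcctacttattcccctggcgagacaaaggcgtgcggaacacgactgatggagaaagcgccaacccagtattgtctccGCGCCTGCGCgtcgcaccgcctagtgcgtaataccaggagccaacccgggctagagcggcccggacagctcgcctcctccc
Mrps27: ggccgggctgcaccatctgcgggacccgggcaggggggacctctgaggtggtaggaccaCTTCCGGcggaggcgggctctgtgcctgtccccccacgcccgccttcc

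The Mrpl49 promoter held a cyclic AMP response element, TGACGTCA, which begins 154 bases before the start site. The Mrpl12 promoter held the core of the NRF1 site, beginning 81 bases before the start, and that of Mrps27 held the ETS core CCGGAAG on the opposite strand, beginning 48 bases before the start. The stretch shown for Mrps12 held none of the motifs searched, but the full window of Mrps12, described next, held an ETS core, and that of Mrps27 held a YY1 match as well. Across the 65 members with a promoter sequence (250 bases before to 50 after the start), searched on both strands, the ETS core was present in 23 promoters, 35.38% against 12.94% of 17491 genes. The NRF1 core was present in 12, 18.46% against 7.17% of all genes, and the YY1 motif in 5, 7.69% against 1.06%. Motifs known from the unfolded protein response were rare or missing in the same windows, but they are uncommon over all genes too. The counts in 65 promoters are too small to show a lack of them in the members. The element TGACGTGG and the endoplasmic reticulum stress element were found in 0 of the 65 promoters (0.82% and 0.17% of all genes), as was the C/EBP-ATF element TGATGNAA (4.13% of all genes). The cyclic AMP response element was found in 2 promoters (3.08%, against 2.54% of all genes) and the E-box CACGTG in 4 (6.15%, against 8.91%). Such matches are a description of the letters in these windows and do not show binding.

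The arrays hold processed intensities on a linear scale between 3 and 24483, and the correlation between arrays of 1 group was 0.9841 to 0.9934 across probe sets. All 73 members were tested in every comparison. Only Mrpl47 stayed under an intensity of 16 in each group (highest group mean 6.5), a level at which the rounding of the deposited values is coarse. Xbp1 read 505, 404, 567 and 404 in Xbp1 ko livers, against 912, 807, 1140 and 916 in WT littermates. Ern1 went against the siRNA labels, with 169, 184, 236 and 230 in the arrays labelled IRE1 siRNA, against 21, 18, 23 and 35 in those labelled luciferase siRNA, so each direction given for this comparison turns round if the labels were exchanged. In Ire1 ko livers the Ern1 probe set did not read low (150.3 ± 2.52, n = 3, in untreated Ire1 ko livers and 149.2 ± 36.6, SD, n = 4, in untreated WT livers), and whether it lies within the deleted part is not given, so it does not check that genotype. Summed markers of hepatocytes lay at 27937 to 29727 in Ire1 ko tunicamycin livers, 26695 to 26852 in WT tunicamycin livers, 27862 to 32429 in untreated Ire1 ko livers and 29128 to 31990 in untreated WT livers. In WT livers 3 of the 6 hepatocyte markers were called lower after tunicamycin. Hnf4a, of the same list, was not called in WT livers. It was called higher after tunicamycin in Ire1 ko livers (log2 change 0.40, adjusted p = 0.00317 by limma). Hnf4a was also higher in Ire1 ko than in WT tunicamycin livers (0.55, adjusted p = 0.00017 by limma). Summed markers of Kupffer cells and macrophages lay at 346 to 551, 281 to 408, 349 to 1100 and 335 to 824 in the same groups, and 2 of the 8, Cd68 and Vsig4, were called lower after tunicamycin in WT livers (log2 change -0.87 and -1.01). Marco, of the same list, went the other way there (1.02, not called). Summed endothelial markers lay at 345 to 540, 278 to 391, 336 to 491 and 411 to 530, so that WT tunicamycin and untreated WT livers did not overlap, and of the 6 genes 3 were called lower and 1 higher in WT livers. After tunicamycin in Ire1 ko livers, Kdr was the only endothelial marker called (lower, log2 change -0.49). None of the Kupffer cell and macrophage markers was called there. The part of cell makeup in the results below was not tested. In tissue RNA, fewer cells of a type and less RNA per cell cannot be told apart.

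In WT livers, tunicamycin changed genes of the mitochondrial ribosome in both directions: on the log2 scale Mrpl49 fell by 3.34 and Mrps12 rose by 1.55, while the median member moved little. A gene is counted as called where limma's adjusted p over all genes tested was under 0.05. Called higher were 16 members and called lower 23 of 73, and the rest did not pass the test. Over all genes tested, 36.2% were called (18.5% higher and 17.7% lower). The percentage was 66.3 among genes with a group mean of 16 or more, the range in which 72 of the 73 members lie. For the members it was 53.4, between these values. The median log2 change of the members was -0.11, beside -0.02 over all genes tested and 0.015 over genes with a group mean of 16 or more. Counts by subunit were 10 higher and 14 lower of 48 for the large subunit, and 6 higher and 9 lower of 24 for the small subunit.

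**Figure D1:**
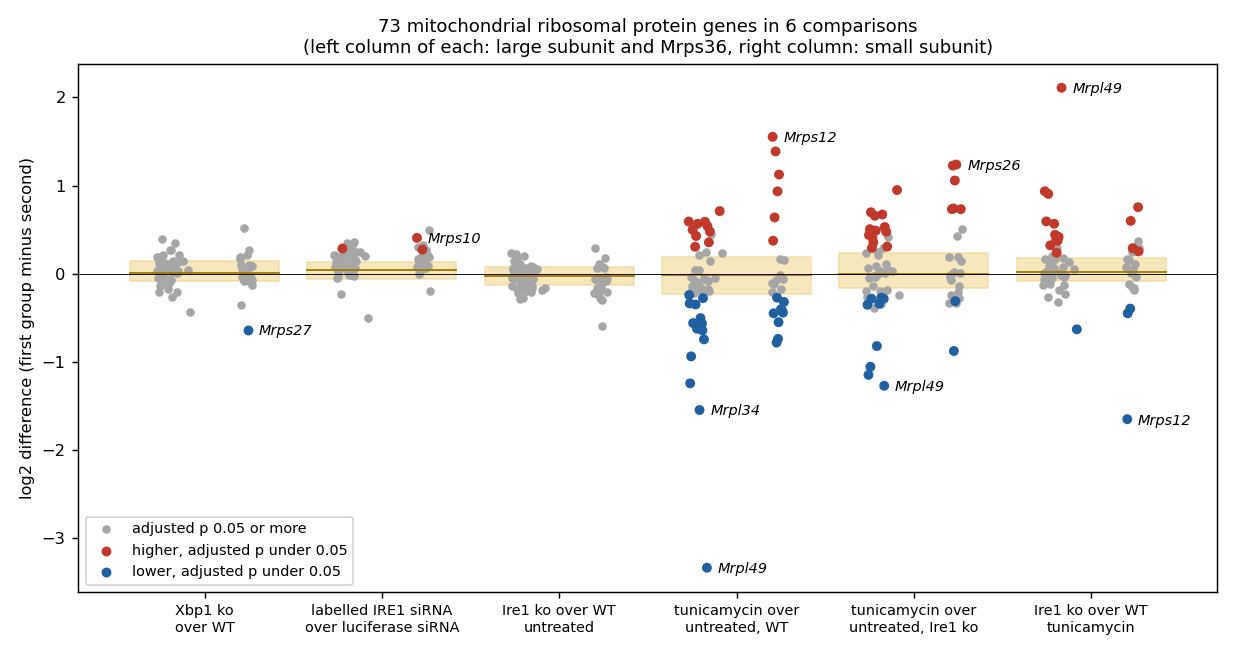
Log2 difference of each of the 73 genes (points) in 6 comparisons; within each comparison the left column is the large subunit with Mrps36 and the right column the small subunit, colour marks genes with an adjusted p under 0.05, and the shaded box and line are the quartiles and median of all genes tested. After tunicamycin in WT livers the points spread from -3.34 for Mrpl49 to 1.55 for Mrps12, while in the comparisons without tunicamycin they stay within 0.64 of 0.

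Among the genes that rose, the 4 with the highest log2 change belong to the small subunit. Mrps12 is the counterpart of bacterial S12, a protein of the decoding centre. Mrps12 read 462, 473, 406 and 482 in WT tunicamycin livers, against 147, 126, 172 and 181 in untreated WT livers, without overlap (log2 difference 1.55, SE 0.15, adjusted p = 2.95e-07). Mrps18b, one of several mammalian relatives of bacterial S18, read 546, 599, 498 and 501 in WT tunicamycin livers, against 226, 183, 182 and 232 in untreated WT livers. That is a log2 difference of 1.39 (SE 0.10, adjusted p = 1.19e-08), again with every treated array above every untreated one. Mrps26, specific to mitochondria, read 110, 108, 115 and 103 in WT tunicamycin livers, against 57, 52, 42 and 50 in untreated WT livers (log2 difference 1.12, SE 0.12, adjusted p = 1.4e-06). Mrps23, also specific to mitochondria, averaged 62.8 ± 9.74 in WT tunicamycin livers and 32.8 ± 4.27 in untreated WT livers (SD, n = 4 each; log2 difference 0.93, adjusted p = 3.84e-05). Smaller rises were those of the large-subunit genes Mrps30 (0.71), Mrpl1 (0.59) and Mrpl44 (0.59) and of the small-subunit gene Mrps17 (0.64). The other called rises, of Mrpl3, Mrpl17, Mrpl21, Mrpl24, Mrpl50, Mrpl54, Mrpl57 and Mrps14, lay between 0.30 and 0.57.

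The steepest falls were of large-subunit genes. Mrpl49, specific to mitochondria, read 9, 11, 7 and 17 in WT tunicamycin livers, against 104, 96, 102 and 121 in untreated WT livers (log2 difference -3.34, SE 0.20, adjusted p = 1.42e-09), so that the highest treated array lay far below the lowest untreated one. The treated values are under 16 on 3 of 4 arrays, where rounding makes the size of the fall imprecise. The other probe set of Mrpl49 averaged 10.2 in WT tunicamycin livers and 34.8 in untreated WT livers. Mrpl34, the counterpart of bacterial L34, read 41, 38, 34 and 35 in WT tunicamycin livers, against 111, 114, 106 and 101 in untreated WT livers (log2 difference -1.55, SE 0.10, adjusted p = 5.96e-09). Mrpl12, which forms the stalk that recruits translation factors, read 174, 166, 175 and 199 in WT tunicamycin livers, against 404, 424, 420 and 441 in untreated WT livers (log2 difference -1.25, SE 0.08, adjusted p = 5.2e-09). In both genes the groups did not overlap. Mrpl14, the counterpart of bacterial L14 at the interface between the subunits, read 68, 68, 68 and 80 in WT tunicamycin livers, against 155, 123, 130 and 137 in untreated WT livers (log2 difference -0.94, SE 0.10, adjusted p = 1.17e-06). Next came Mrps21 (-0.78), Mrpl42 (-0.75), Mrps24 (-0.74) and Mrpl4 (-0.64). The other 15 called falls lay between -0.63 (Mrpl28) and -0.24 (Mrpl10). Of the 39 calls in WT livers, 30 held under every alternative and with each array left out, and the 9 that did not were of Mrpl1, Mrpl10, Mrpl21, Mrpl40, Mrpl54, Mrps14, Mrps22, Mrps25 and Mrps35.

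**Figure D2:**
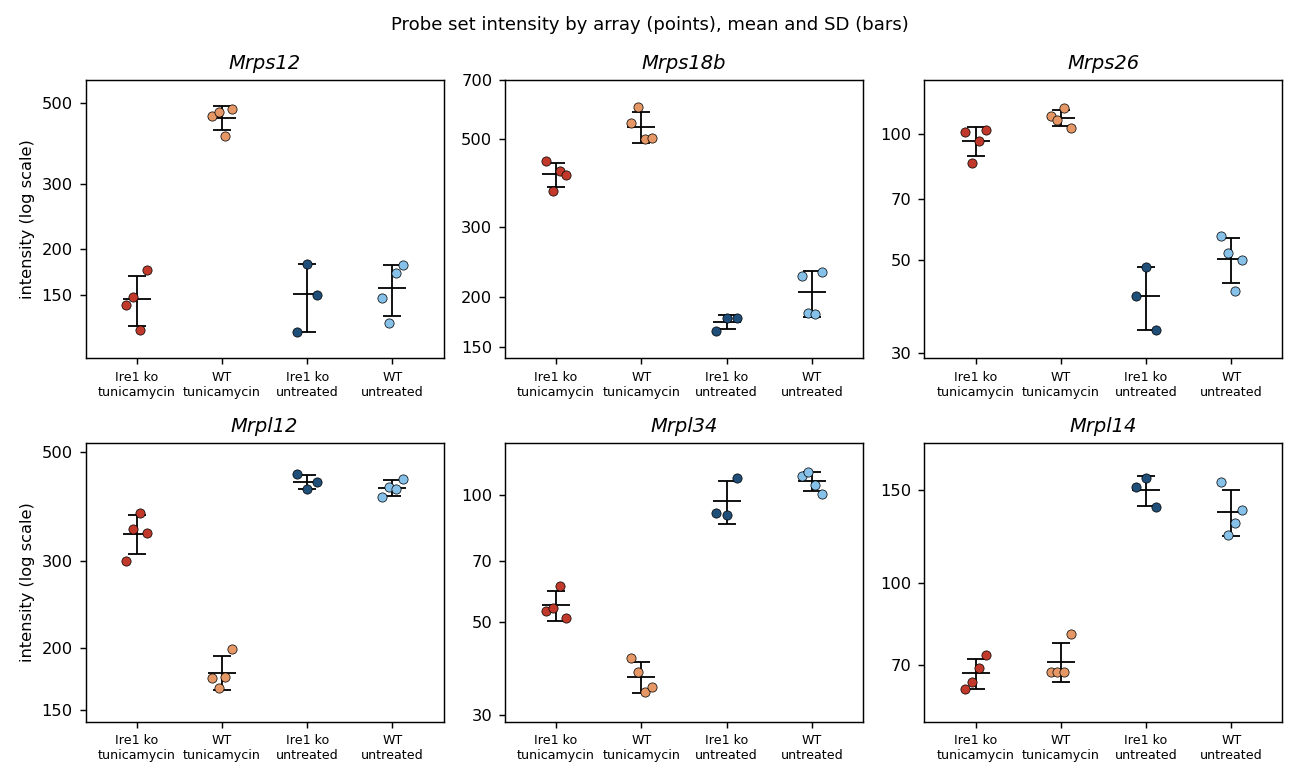
Probe set intensity (log axis) of 6 genes on each array (points), with the mean and SD (bars), in Ire1 ko and WT livers after tunicamycin and untreated. Mrps18b and Mrps26 are high in both tunicamycin groups, Mrps12 only in WT tunicamycin livers (406 to 482), and Mrpl12 and Mrpl34 are lower in WT than in Ire1 ko tunicamycin livers.

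In Ire1 ko livers, tunicamycin raised 19 members and lowered 11 of 73, beside 27.7% of all genes called (17.3% higher and 10.3% lower) and 53.7% of genes with a group mean of 16 or more. The median log2 change of the members was 0.02, that of all genes tested 0.00 and that of genes with a group mean of 16 or more 0.12. The large subunit had 13 genes higher and 9 lower, the small subunit 6 higher and 2 lower. Of the 30 calls in Ire1 ko livers, 19 held under every alternative and with each array left out. Mrps26 averaged 96.0 ± 7.79 in Ire1 ko tunicamycin livers (n = 4) and 41.0 ± 7.0 in untreated Ire1 ko livers (SD, n = 3; log2 difference 1.24, adjusted p = 2.7e-06). Mrps18b followed with 1.23, Mrps23 with 1.06, Mrps30 with 0.95, Mrps2 with 0.74, Mrps6 with 0.73, Mrps17 with 0.73 and Mrpl19 with 0.70. The steepest falls were of Mrpl49 (-1.27), Mrpl14 (-1.15), Mrpl18 (-1.06) and Mrps21 (-0.88), followed by Mrpl34 (-0.82), Mrpl12 (-0.35), Mrpl39 (-0.34) and Mrps24 (-0.31). Mrpl18, the counterpart of the bacterial protein that binds 5S ribosomal RNA, read 56, 48, 54 and 51 in Ire1 ko tunicamycin livers, against 98, 122 and 107 in untreated Ire1 ko livers. The split between rises and falls depended on the scaling of the arrays. Setting the arrays to a common median lowered the log2 change of the median gene by 0.18 in Ire1 ko livers and by 0.12 in WT livers. It gave 13 members higher and 24 lower in Ire1 ko livers and 13 higher and 30 lower in WT livers. Quantile normalization gave 15 higher and 23 lower in Ire1 ko livers and 14 higher and 29 lower in WT livers. Mrps12, Mrps18b, Mrps26, Mrps23, Mrpl49, Mrpl34, Mrpl12 and Mrpl14 kept their call and direction in WT livers under each alternative listed in the closing section.

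The response to tunicamycin differed between genotypes for 10 members by the interaction term, with 7.54% of all genes (3.59% higher and 3.95% lower) and 15.4% of genes with a group mean of 16 or more called. In 9 of them the change was more positive in Ire1 ko livers, and in Mrps12 it was more negative. The 10 members are 13.7% of the 73. The members' median interaction was 0.10, beside 0.05 for all genes tested and 0.14 for genes with a group mean of 16 or more. Each genotype's own comparison shares no arrays with the other, and both are shown side by side in the plot of the change in each genotype. After tunicamycin itself, 15 members were higher and 4 lower in Ire1 ko than in WT livers, beside 18.2% of all genes (9.68% higher and 8.48% lower) and 36.4% of genes with a group mean of 16 or more. Of these 19 calls, 10 held under every alternative and with each array left out.

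**Figure D3:**
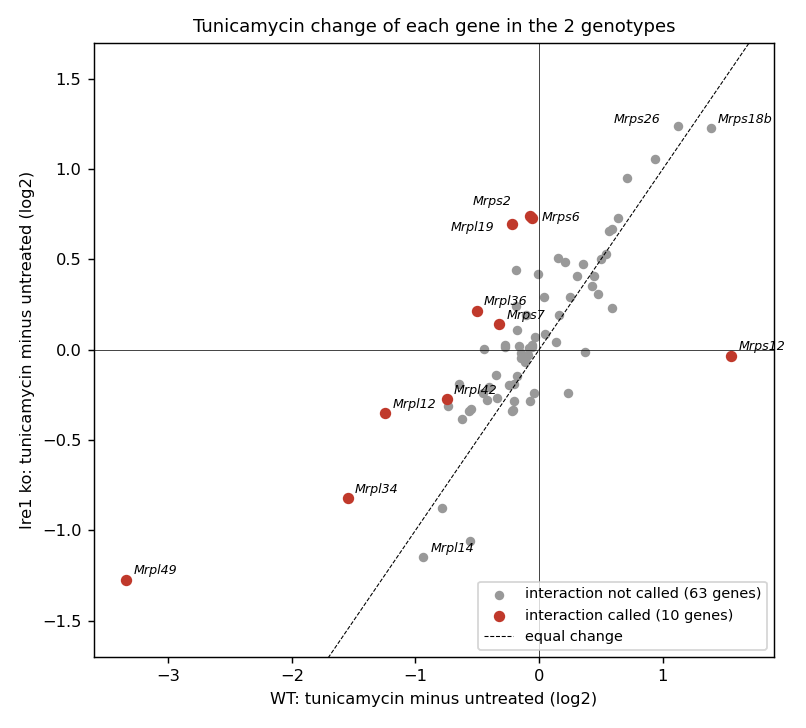
Log2 change with tunicamycin of each of the 73 genes in Ire1 ko livers (vertical axis) and in WT livers (horizontal axis); the dashed line marks equal change and colour marks the 10 genes with a called interaction. Mrps12 lies far to the right near 0 on the vertical axis (-0.03 in Ire1 ko, 1.55 in WT livers), and Mrpl49 far to the left (-1.27 in Ire1 ko, -3.34 in WT livers).

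Mrps12 read 141, 148, 120 and 175 in Ire1 ko tunicamycin livers, 462, 473, 406 and 482 in WT tunicamycin livers, 119, 182 and 150 in untreated Ire1 ko livers and 147, 126, 172 and 181 in untreated WT livers. Only the WT tunicamycin group stood apart, and the other 3 groups overlapped. The interaction was -1.59 (SE 0.22, adjusted p = 0.000192), and the difference of Ire1 ko from WT after tunicamycin was -1.65 (SE 0.15, adjusted p = 4.35e-07). The probe set of Mrps12 has the suffix s_at, which marks possible matches to transcripts of other genes, as do those of Mrpl19 and Mrps24. Mrpl49 read 43, 47, 46 and 44 in Ire1 ko tunicamycin livers, 9, 11, 7 and 17 in WT tunicamycin livers, 115, 120 and 93 in untreated Ire1 ko livers and 104, 96, 102 and 121 in untreated WT livers. Both tunicamycin groups were below both untreated groups, WT the furthest (interaction 2.07, SE 0.29, adjusted p = 0.000272). Its other probe set averaged 17.2 in Ire1 ko tunicamycin livers, 10.2 in WT tunicamycin livers, 36.0 in untreated Ire1 ko livers and 34.8 in untreated WT livers, an interaction of 0.70, and the mean of both probe sets gave 1.38 (adjusted p = 0.00183). Mrpl12 read 301, 348, 375 and 342 in Ire1 ko tunicamycin livers, against 174, 166, 175 and 199 in WT tunicamycin livers (interaction 0.89, SE 0.12, adjusted p = 0.000194). Its untreated values, 450, 421 and 434 in Ire1 ko livers and 404, 424, 420 and 441 in WT livers, overlapped. These 3 interactions kept their call under every alternative and with each array left out.

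Mrps2, the counterpart of bacterial S2, read 159, 136, 154 and 169 in Ire1 ko tunicamycin livers, against 119, 108, 84 and 99 in WT tunicamycin livers, and averaged 92.3 ± 4.93 in untreated Ire1 ko livers (n = 3) and 107.5 ± 12.5 in untreated WT livers (SD, n = 4). Only the Ire1 ko tunicamycin group was raised (interaction 0.81, adjusted p = 0.00898, and 0.0504 in a fit over all 31 arrays). Mrps6 (interaction 0.79) and Mrpl19 (0.92) were likewise highest in Ire1 ko tunicamycin livers. Mrpl34 fell in both genotypes and less in Ire1 ko livers (interaction 0.73, adjusted p = 0.00731), and 0.44 with an adjusted p of 0.0616 with the mean over a gene's probe sets in place of 1 of them. The other called interactions were Mrpl36 (0.72), Mrpl42 (0.47) and Mrps7 (0.46), each of which was called lower after tunicamycin in WT livers. With the arrays set to a common median the calls of Mrpl42 (adjusted p = 0.121) and Mrps7 (0.119) were lost. With the mean over a gene's probe sets the interaction was 0.13 for Mrpl42 (adjusted p = 0.652) and 0.43 for Mrpl19 (0.0564). Mrpl36 lost the call without replicate 3 of the untreated Ire1 ko livers (adjusted p = 0.0537), as did Mrps6 (0.0678) and Mrpl19 (0.0947). Mrps6 also lost it without replicate 4 of the WT tunicamycin livers (0.0505), Mrpl42 without replicate 2 of the untreated Ire1 ko or replicate 3 of the Ire1 ko tunicamycin livers, and Mrpl19 without any 1 of 10 of the 15 arrays. Among members lower in Ire1 ko than in WT livers after tunicamycin were, besides Mrps12, Mrps36 (47.8 ± 3.3 and 74.0 ± 5.1, SD, n = 4 each; log2 difference -0.63), Mrps14 (-0.45) and Mrps18b (-0.40). The interaction was not called for these 3 genes.

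The genes next to the ones that moved most gave further values, and are given beside them. By RefSeq, 26 members had a protein-coding neighbour head to head and 20 overlapped another protein-coding gene, with neighbours counted within 1000 bases. Mrpl49 overlaps Syvn1, which encodes the ubiquitin ligase of endoplasmic reticulum-associated degradation, tail to tail, and lies head to head with Fau, which encodes a protein of the cytosolic ribosome. Syvn1 read 600, 615, 553 and 612 in Ire1 ko tunicamycin livers, 1512, 1614, 1807 and 1324 in WT tunicamycin livers, 54, 85 and 74 in untreated Ire1 ko livers and 104, 89, 144 and 134 in untreated WT livers. Syvn1 was thus highest in the group in which Mrpl49 was lowest, with log2 changes of 3.09 in Ire1 ko (adjusted p = 1.96e-09) and 3.75 in WT livers (adjusted p = 3.41e-11). The interaction for Syvn1 was -0.66 (adjusted p = 0.107), and the part of the overlapping transcript in the Mrpl49 values was not tested. Fau averaged 1717 ± 24.6 in WT tunicamycin livers and 1652 ± 75.4 in untreated WT livers (log2 difference 0.06, adjusted p = 0.509), and was 0.18 higher after tunicamycin in Ire1 ko livers (adjusted p = 0.0384).

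Mrps12 lies head to head with Sars2, the mitochondrial seryl-tRNA synthetase. Sars2 read 10, 10, 8 and 11 in Ire1 ko tunicamycin livers, 19, 14, 13 and 12 in WT tunicamycin livers, 9, 8 and 10 in untreated Ire1 ko livers and 7, 9, 7 and 6 in untreated WT livers. As with Mrps12, the WT tunicamycin group was the highest (log2 change 0.11 in Ire1 ko livers, adjusted p = 0.709, and 0.99 in WT livers, adjusted p = 9.85e-05; interaction -0.88, adjusted p = 0.0311), though at intensities of 19 and less. Over the 23 head-to-head pairs with both genes tested after tunicamycin in WT livers, both genes were called in the same direction in 4 pairs (Mrps12 with Sars2, Mrpl14 with Tmem63b, Mrpl36 with Ndufs6, Mrpl50 with Zfp189) and in opposite directions in 1 pair (Mrpl18 with Tcp1). In 6 further pairs only the member was called. Tmem63b read 6, 9, 7 and 8 in WT tunicamycin livers and Zfp189 read 8, 7, 7 and 8, intensities at which rounding is coarse. Called beside these pairs in WT livers were 36.2% of all genes and 66.3% of genes with a group mean of 16 or more. Whether the 2 genes of a pair share regulation was not tested. In Ire1 ko livers 2 pairs were called in the same direction and 4 in opposite directions.

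**Figure D4:**
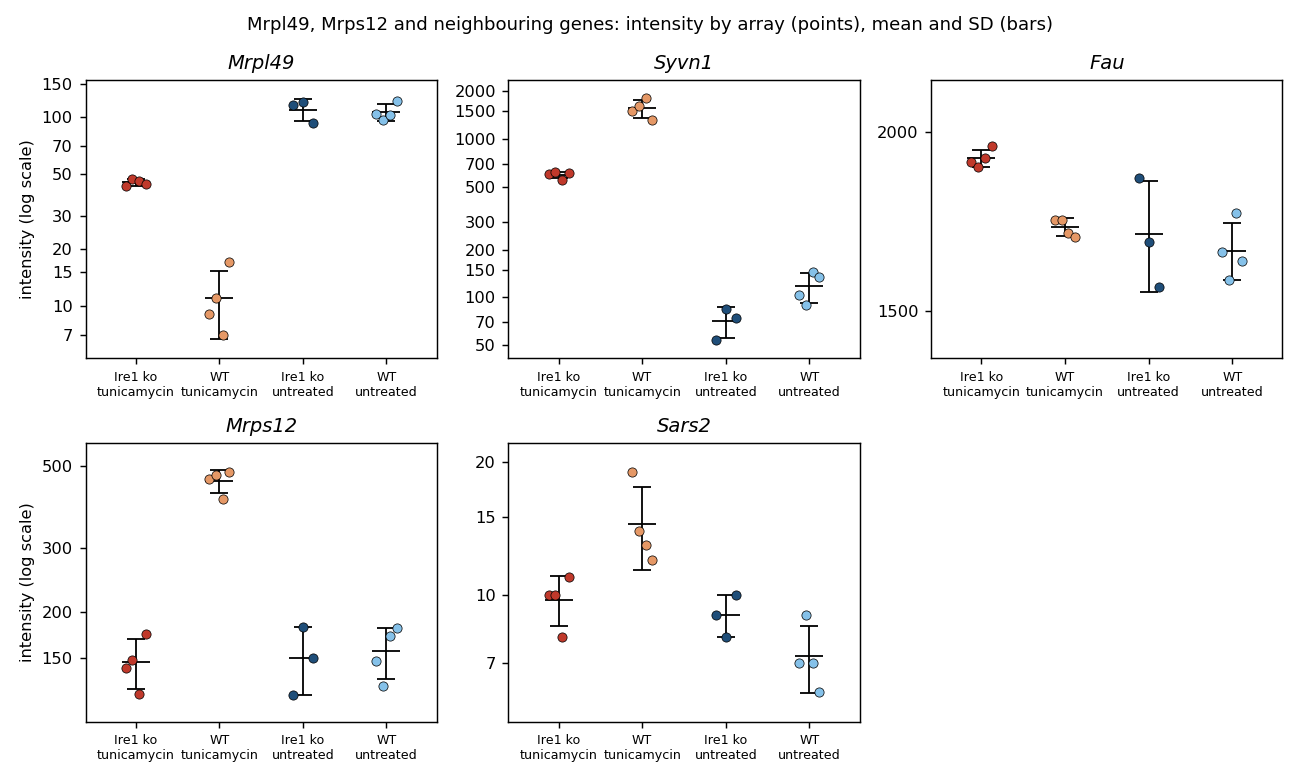
Intensity (log axis) of Mrpl49 with its neighbours Syvn1 and Fau, and of Mrps12 with its neighbour Sars2, on each array (points) with the mean and SD (bars). Syvn1 is highest (1324 to 1807) and Mrpl49 lowest (7 to 17) in WT tunicamycin livers, Fau lies between 1558 and 1956 in all 4 groups, and Sars2, like Mrps12, is highest in WT tunicamycin livers.

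Without tunicamycin, few differences from WT were called in Ire1 ko or Xbp1 ko livers, among the members as over all genes. Between untreated Ire1 ko and WT livers, 0 of 73 members were called by limma, with 0.943% of all genes (0.0791% higher and 0.863% lower) and 2.06% of genes with a group mean of 16 or more. At an unadjusted p under 0.05, 1 member was higher and 6 were lower, 9.59% of the members, beside 9.5% of all genes tested and 13.2% of genes with a group mean of 16 or more. The largest difference was that of Mrps27, a mitochondria-specific protein of the small subunit with pentatricopeptide repeats, at 22, 28 and 20 in untreated Ire1 ko livers and 50, 30, 33 and 30 in untreated WT livers (log2 difference -0.60, SE 0.17, adjusted p = 0.159). In a single fit over all 31 arrays its adjusted p was 0.0438.

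Mrps27 was also the 1 member called between Xbp1 ko livers and those of WT littermates, with 2.71% of all genes (0.642% higher and 2.07% lower) and 5.22% of genes with a group mean of 16 or more called. Mrps27 read 16, 17, 15 and 16 in Xbp1 ko livers, against 28, 22, 26 and 24 in WT littermates (log2 difference -0.64, SE 0.10, adjusted p = 0.0139), without overlap but at a low intensity. Its head-to-head neighbour Ptcd2 averaged 30.2 ± 2.22 in Xbp1 ko livers and 36.0 ± 6.98 in WT littermates (SD, n = 4 each; log2 difference -0.23, adjusted p = 0.528). The members' median log2 difference was 0.04, beside 0.01 over all genes and 0.04 over genes with a group mean of 16 or more. The other members lay between -0.44 and 0.51, and none of them passed the test.

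In the siRNA experiment, 3 members were higher and 0 lower in the arrays labelled IRE1 siRNA than in those labelled luciferase siRNA, beside 1.8% of all genes (0.649% higher and 1.15% lower) and 3.29% of genes with a group mean of 16 or more. Of the 73 members, 62 had a log2 difference above 0, or 84.9%, with a median of 0.12. Over all genes tested 55.9% lay above 0 with a median of 0.04, and over genes with a group mean of 16 or more 67.8% with a median of 0.08. Some cell type marker sums moved in the same comparison. Summed stellate cell and fibroblast markers lay at 692 to 950 in the arrays labelled IRE1 siRNA, against 574 to 648 in those labelled luciferase siRNA. Summed hepatocyte markers lay at 27856 to 28381, against 28731 to 30220. Neither of these sums overlapped between the groups, but 4 of the 7 stellate cell and fibroblast markers averaged under 16 in each group. Kupffer cell and macrophage sums (751 to 1046, against 619 to 938) and endothelial sums (450 to 501, against 474 to 532) overlapped. So did cholangiocyte, lymphocyte and erythroid sums. Of the hepatocyte markers only Serpina1a was called (lower, log2 difference -0.17), and Hnf4a lay higher (0.15, not called). The part of cell makeup in the differences of the members was not tested. Mrps10, the counterpart of bacterial S10, read 163, 156, 148 and 149 in the arrays labelled IRE1 siRNA, against 108, 117, 116 and 124 in those labelled luciferase siRNA (log2 difference 0.41, SE 0.06, adjusted p = 0.0152). Mrpl28, the counterpart of bacterial L28, read 173, 176, 166 and 167 in the arrays labelled IRE1 siRNA, against 135, 145, 137 and 143 in those labelled luciferase siRNA (0.29, adjusted p = 0.0199). Mrps22, specific to mitochondria, read 192, 181, 174 and 181 in the arrays labelled IRE1 siRNA, against 152, 147, 152 and 151 in those labelled luciferase siRNA (0.27, adjusted p = 0.0218). In all 3 genes the groups did not overlap, and by the Ern1 values the higher group is the one with more Ern1 signal. Without replicate 3 of the arrays labelled luciferase siRNA, 1 member was called, Mrps10, and without replicate 4, 4 members. Mrpl28 also lost its call without replicate 1 of the arrays labelled IRE1 siRNA (adjusted p = 0.0511), and Mrps22 without replicate 2 of either group. With quantile normalization 2 members were higher and 1 lower, Mrps22 lost its call (adjusted p = 0.0676) and the members' median difference was 0.07. With the arrays set to a common median 1 member was higher, Mrps10, and 1 lower, 53 of 73 lay above 0 and the median was 0.05. Mrpl28 then had an adjusted p of 0.199 and Mrps22 of 0.254. Mrpl28 and Mrps22 also lost their calls in a fit over all 31 arrays (0.249 and 0.0936), and Mrpl28 with the mean of its probe sets (log2 difference 0.10, adjusted p = 0.629).

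**Figure D5:**
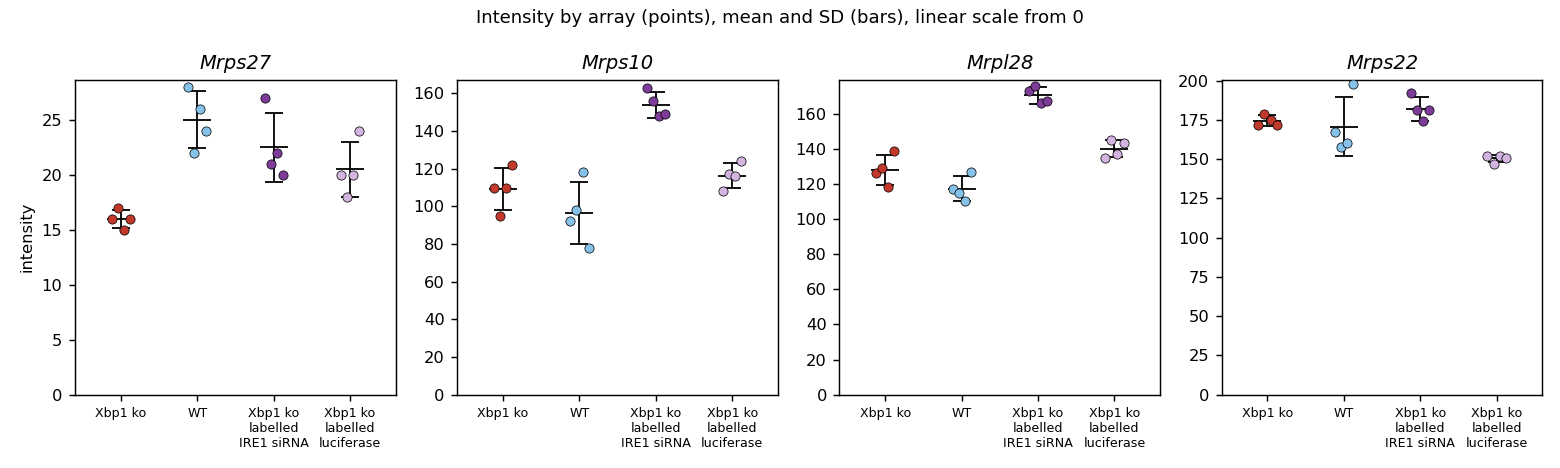
Intensity (linear axis from 0) of Mrps27, Mrps10, Mrpl28 and Mrps22 on each array (points), with the mean and SD (bars), in the Xbp1 experiment (Xbp1 ko, WT) and the siRNA experiment in Xbp1 ko livers (as labelled). Mrps27 is lower in Xbp1 ko livers (15 to 17) than in WT (22 to 28), and the other 3 genes are higher in the arrays labelled IRE1 siRNA.

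Other genes of mitochondrial gene expression were measured in the same comparisons, from lists of assembly factors, translation factors, aminoacyl-tRNA synthetases, RNA-handling proteins, regulators and chaperones. Assembly factors and rRNA-modifying enzymes of the mitochondrial ribosome rose more often than they fell after tunicamycin, with 13 higher and 1 lower of 21 in Ire1 ko livers and 10 higher and 2 lower in WT livers. These are 66.7% called in Ire1 ko livers, beside 27.7% of all genes and 53.7% of genes with a group mean of 16 or more, and 57.1% in WT livers, beside 36.2% and 66.3%. With quantile normalization or a common median, 10 were higher and 2 lower in Ire1 ko livers and 9 higher and 2 lower in WT livers. Their median log2 change was 0.53 in Ire1 ko and 0.23 in WT livers. Tfb1m, which dimethylates the RNA of the small subunit, averaged 33.8 ± 5.91 in Ire1 ko tunicamycin livers, 120.2 ± 30.5 in WT tunicamycin livers, 15.7 ± 2.08 in untreated Ire1 ko livers (n = 3) and 18 ± 1.83 in untreated WT livers (SD, n = 4 in the others). It rose by 1.1 on the log2 scale in Ire1 ko (adjusted p = 0.000193) and by 2.71 in WT livers (adjusted p = 2.03e-09), and the interaction was -1.61 (adjusted p = 0.000495). Rbfa, a factor in assembly of the small subunit, was the assembly gene that fell in both genotypes (-0.59 in Ire1 ko and -0.89 in WT livers). Mterf3, Trub2 and Ngrn rose in both genotypes. The GTPases Noa1 and Gtpbp10 were called higher after tunicamycin in Ire1 ko livers (1.08 and 0.97), with interactions of 1.08 and 0.89 (adjusted p = 0.0162 and 0.00671).

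Against the same backgrounds, of 8 translation factors 1 rose and 1 fell in Ire1 ko livers, and 1 rose and 4 fell in WT livers. In Ire1 ko livers 3 fell with a common median and 4 with quantile normalization. Gfm1, mitochondrial elongation factor G, fell by 0.53 in Ire1 ko (adjusted p = 0.00157) and by 0.82 in WT livers (adjusted p = 6.65e-06), while the ribosome recycling factor Mrrf was 0.63 higher in Ire1 ko and 0.35 higher in WT livers. Of 14 mitochondrial aminoacyl-tRNA synthetases, 2 rose and 2 fell in Ire1 ko livers, and 5 rose and 3 fell in WT livers. Cars2, the cysteinyl-tRNA synthetase, was not called in Ire1 ko livers and rose by 2.09 in WT livers (adjusted p = 1.88e-09), with 7.0 ± 0.816 in Ire1 ko tunicamycin livers and 38.0 ± 2.16 in WT tunicamycin livers (SD, n = 4 each; log2 difference -2.45, adjusted p = 1.15e-09), and an interaction of -1.95 (adjusted p = 7.44e-06). The Cars2 mean in Ire1 ko tunicamycin livers is under 16, where rounding makes the size of this difference and interaction imprecise. Of 18 genes for mitochondrial transcription and RNA handling, 9 rose and 2 fell in Ire1 ko livers and 9 rose and 4 fell in WT livers. With quantile normalization or a common median, 9 rose and 4 fell in Ire1 ko livers. The median log2 change of these 18 genes was 0.42 in Ire1 ko and 0.37 in WT livers. Tfam, the packaging and transcription factor of mitochondrial DNA, was among the 4 that fell in WT livers (-0.80, adjusted p = 4.33e-05).

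Nuclear regulators of mitochondrial genes had 5 of 9 higher and 2 lower after tunicamycin in Ire1 ko livers, and 6 higher and 2 lower in WT livers. Called beside them were 27.7% of all genes and 53.7% of genes with a group mean of 16 or more in Ire1 ko livers. In WT livers these shares were 36.2% and 66.3%. With quantile normalization 4 regulators were higher in Ire1 ko livers and 5 in WT livers, with 2 lower in each. Ppargc1b, a coactivator of genes for mitochondrial proteins, averaged 23.2 ± 5.32 in Ire1 ko tunicamycin livers (n = 4), 8.25 ± 2.06 in WT tunicamycin livers (n = 4), 84.0 ± 12.1 in untreated Ire1 ko livers (n = 3) and 64.5 ± 18.7 in untreated WT livers (SD, n = 4). It fell in both genotypes (-1.87 in Ire1 ko and -2.96 in WT livers), and its interaction was not called (1.09, adjusted p = 0.0503 by limma). The WT tunicamycin mean of Ppargc1b is under 16, where rounding makes the size of the fall imprecise. The related Pprc1 rose in both (2.72 in Ire1 ko and 2.19 in WT livers), as did Gabpa and Yy1. Esrra, another regulator of the list, fell in both (-0.77 in Ire1 ko and -0.90 in WT livers). Against the same shares, mitochondrial chaperones and proteases had 6 higher and 0 lower of 13 in Ire1 ko livers and 6 higher and 2 lower in WT livers. With a common median 5 were higher and 2 lower in Ire1 ko livers, and with quantile normalization 6 and 1. Under both scalings 6 were higher and 4 lower in WT livers. Hspa9, the mitochondrial Hsp70, rose by 0.99 in Ire1 ko and 0.96 in WT livers, and the matrix protease Lonp1 by 0.86 in Ire1 ko and 1.14 in WT livers. A further list held 5 mitochondrial ribosome genes without an Mrpl or Mrps symbol. Against the same shares, 0 were higher and 1 lower in Ire1 ko livers, and 0 higher and 2 lower in WT livers. With quantile normalization 3 were lower in WT livers, and with a common median 4. Dap3, of the small subunit, fell in both genotypes (-0.46 in Ire1 ko and -0.50 in WT livers). After tunicamycin, Ptcd3 of this list was higher in Ire1 ko than in WT livers (0.51, adjusted p = 0.00176 by limma).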

How the data were processed

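Per the labels' protocols, total RNA of liver was labelled as biotinylated cRNA and hybridised to Affymetrix HT MG-430 PM arrays. The deposited intensities are linear whole numbers, and the submitters' processing notes name RMA and the affy package; versions, background and probe set definitions are not given in the sources used here. Precision rests on 3 or 4 arrays a group. Of 45037 probe sets, 28898 name 1 gene, 551 several and 15588 are unnamed here; genes take the name in the platform annotation, and only probe sets with 1 gene were used.

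The intensities were taken to log2 without further normalization and fitted with limma 3.58.1 (R 4.3.3; functions lmFit and eBayes, trend on), in separate fits for the Xbp1 arrays, the siRNA arrays and the 15 arrays of the Ire1 experiment, whose 4 groups shared 1 estimate of spread. A gene was tested where at least 3 arrays gave it a value over their 30th percentile (an intensity of 4 to 5), with Benjamini-Hochberg adjustment of p-values across the genes tested. The fits were tested on simulated data. The labels give biological replicates, but not whether the RNAs came from separate litters or days, and replicate numbers were not used as pairs: same-numbered arrays did not all deviate together (correlations from -0.181 to 0.276). The members and gene lists were chosen with earlier results of these data known. Named members are those called, with values in full for up to 8 highest and 8 lowest per comparison, up to the 3 largest differences where fewer than 3 were called, and up to 5 called genes per list. Alternatives were quantile normalization, a common median, a stricter filter, the mean of all probe sets, 1 fit over 31 arrays, a replicate block and leaving out each array. Promoters and neighbours come from RefSeq tables of GRCm38.p6, which is not stated to be the build of the array annotation.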

Additional observations from a re-analysis of the deposited data

Results flagged for a closer look

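For 10 of the 73 genes the tunicamycin change in Ire1 ko livers differed from that in WT livers by limma's interaction test, with adjusted p-values from 0.000192 (Mrps12) to 0.0351 (Mrpl19). That is 13.7% of the members, beside 7.54% of all genes and 15.4% of genes with a group mean of 16 or more. The differences on the log2 scale, Ire1 ko minus WT, were -1.587 for Mrps12, 2.065 for Mrpl49, 0.917 for Mrpl19, 0.892 for Mrpl12, 0.812 for Mrps2, 0.788 for Mrps6, 0.726 for Mrpl34, 0.72 for Mrpl36, 0.474 for Mrpl42 and 0.463 for Mrps7. The strain entries differ with genotype in these groups, although the untreated WT mice are titled littermates of Ire1 ko mice, and the part of each cannot be told apart.

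One array was flagged as outlying, by its gap to the nearest array as a share of the range of the 4 arrays. Mrpl14 read 80 in replicate 4 of the WT tunicamycin livers, while the other 3 arrays read 68. The flag rests on 3 equal whole numbers, and the untreated WT livers spread further, from 123 to 155. The flagged array was 1 among 67 groups of 4 arrays looked at, and chance alone marks about 5% of such groups.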

How the results depend on the processing

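With quantile normalization the median log2 change was 0.071 in the siRNA comparison, -0.012 in untreated Ire1 ko, -0.208 after tunicamycin in WT and -0.091 after tunicamycin in Ire1 ko livers. With a common median these were 0.054, 0.018, -0.234 and -0.162, and the interaction median was 0.048. The mean of all probe sets gave -0.065 after tunicamycin in WT livers. A filter at an intensity of 16 gave 9 called members in the siRNA comparison, where fewer genes were tested. One fit over 31 arrays called 1 member lower in untreated Ire1 ko livers. With replicate numbers as a block, 0 members were called in the Xbp1 comparison (Mrps27, adjusted p = 0.108) and 0 in the siRNA comparison (adjusted p = 0.174 for Mrps10, 0.136 for Mrpl28 and 0.149 for Mrps22), and the other counts of called members stayed within 1.5 times; the samples share only a number. Leaving out 1 array at a time gave 1 to 1 called members for Xbp1, 1 to 4 for siRNA, 0 to 0 for untreated Ire1 ko, 33 to 39 for tunicamycin in WT, 25 to 32 for tunicamycin in Ire1 ko, 13 to 20 for Ire1 ko against WT after tunicamycin and 7 to 11 for the interaction. The medians ranged over 0.009 to 0.078, 0.093 to 0.142, -0.053 to -0.04, -0.142 to -0.084, 0.011 to 0.043, 0.057 to 0.09 and 0.084 to 0.139 in the same order. The cause of these shifts was not tested. No called member turned its direction under any alternative. Values near the lower end are rounded to whole numbers, which limits dim genes.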
